A study of Mus musculus with 24 samples.

Results

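The nuclear factor I (NFI) family has 4 genes in the mouse, Nfia, Nfib, Nfic and Nfix, and all 4 were followed in the liver of mice with and without the major urinary protein (Mup) gene cluster. The members were chosen by name as 4 of the 25746 genes in the count files, and all 4 were among the 12330 genes that passed the filter on low counts. The family was put forward with results of these libraries known, but the values that led to it were not recorded. It was treated as selected on the difference between male knockout (mKO) and wildtype (mWT) mice and on the difference between the knockout effects of the sexes. These differences are therefore given for the members as descriptions with no test. The female libraries enter the second of them, so how far they had a part in the choice is not known.

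NFI proteins are transcription factors that bind DNA as dimers, each subunit reading the core TTGGCA, so that a full site is a palindrome of the form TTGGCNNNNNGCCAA. They share a conserved DNA-binding and dimerization domain in their amino-terminal part and differ in the carboxy-terminal part that activates or represses transcription, and different members can pair with each other. In liver, NFI sites are known from promoters of hepatocyte genes such as that of albumin.

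Hepatic RNAseq counts were available from 24 mice of the C57/BL6N strain aged 12 weeks, 6 each of male wildtype (mWT), male Mup-KO (mKO), female wildtype (fWT) and female Mup-KO (fKO), with 1 library per mouse. KO mice were homozygous for a CRISPR/Cas9 deletion of the whole Mup cluster in every cell. The line goes back to a single male founder, WT and KO mice came from crosses of heterozygous parents, and all were fed standard chow ad libitum. Before the livers were taken, mice of all groups were fasted for some hours and anesthetized with isoflurane for a body scan. No other allele is named for any group, and further genetic differences between KO and WT mice were not examined here. The study asked how the loss of Mup proteins changes the liver in each sex.

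Between 15361901 and 26261394 reads were counted on genes per library, of which 4.41% to 6.98% fell on mitochondrial genes. Each KO library held at most 11 Mup reads, against at least 70768 in every WT library. The 7 hepatocyte markers summed to between 97876 and 153887 CPM per library (counts relative to the scaled library total), as the highest of the marker sums, and none of the markers of 8 cell types examined was at 0 in all libraries. Of the 12330 genes tested, 26 differed between mKO and mWT, 17 of them Mup genes.

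The 4 members lie apart from each other in GRCm38, the authors' genome build (GENCODE M21 annotation). Nfia (ENSMUSG00000028565) spans positions 97772734 to 98118874 of chromosome 4 on the plus strand. Nfib (ENSMUSG00000008575) spans 82290173 to 82705750 of the same chromosome on the minus strand. Both are on the chromosome of the Mup cluster, which runs from 59956804 to 62150863, but 20.1 Mb (Nfib) and 35.6 Mb (Nfia) away from it. Nfic (ENSMUSG00000055053) is on chromosome 10 at 81396186 to 81455635 and Nfix (ENSMUSG00000001911) on chromosome 8 at 84699876 to 84800344, both on the minus strand. The transcripts of different members held no stretch of 90% identity or more. The longest similar stretch, 586 bp between Nfic and Nfix, was 82.4% identical, and 0 other genes held 100 bp, the read length, at 98% identity to any member.

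A start site of Nfic is shown because Nfic is the member with the largest difference between mKO and mWT mice. RefSeq's promoter table of GRCm38.p6 holds windows from 250 bases before to 50 bases after a start, with 1 window for Nfic, 1 for Nfia, 4 for Nfix and none matched for Nfib. The Nfic window lies inside the gene span of GENCODE, holds 24 CpG dinucleotides and is 63% G or C. The median over all 32851 windows was 7 CpG. The first 236 bases of the window, all of them before the start, chr10:81427188-81427423 on the minus strand, are printed with their 17 CpG in capitals.
Nfic: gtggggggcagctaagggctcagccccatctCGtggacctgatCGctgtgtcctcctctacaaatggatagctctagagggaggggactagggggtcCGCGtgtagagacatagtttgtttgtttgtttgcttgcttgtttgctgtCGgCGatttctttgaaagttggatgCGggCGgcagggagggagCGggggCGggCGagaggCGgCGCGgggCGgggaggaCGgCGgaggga

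The core TTGGCA, searched on both strands, was found in 0 of the 6 member windows, and so was the palindrome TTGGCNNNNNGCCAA. These windows do not sit at the gene starts given above. The Nfia window, chr4:97581693-97581992, lies before the span of that gene, and the 4 Nfix windows lie inside the span of Nfix. The members' other start sites were not searched. Of all windows of the same length, 14.1% held the core and 0.0365% (12 windows) the palindrome. Among 20 genes known as bound or controlled by NFI proteins in some tissue, the core was found in the windows of Alb, Afp, Ezh2, Slc25a5, Col1a2 and Igfbp5. It was also found in 12 of the 14 Mup genes with a window, the genes removed in the KO mice. These Mup promoters are near-identical copies, since 9 of their 14 matches sit in the same 24 bases, and they do not count as independent matches. The core is in capitals in the matches below, which show a serum protein gene, 2 Mup genes with different surrounding bases and a growth factor binding protein gene.
Alb: aacaactttTTGGCAaagatggta
Mup2: tttgcaaacTTGGCAatttcataa
Mup21: ttttcaaacTTGGCAatctcatca
Igfbp5: caaagctccTTGGCAtccttgcat
The core of Alb is at chr5:90460777-90460782 on the plus strand, 93 bases before the start, and that of Igfbp5 at chr1:72874985-72874990 on the minus strand, 125 bases before it. The core of Mup2 begins 194 bases before the start in the window chr4:60139807-60140106 and that of Mup21 134 bases before it in chr4:62150792-62151091, both on the minus strand. A match of letters is a description and does not show binding.

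All 4 members were expressed in every library, with between 784 (Nfia, mWT 6) and 3133 (Nfib, fKO 2) reads. Divided by exon length, the mean level over all 24 mice was 5.76 CPM per kilobase of exon (RPKM) for Nfia, 7.73 for Nfib, 7.92 for Nfix and 9.69 for Nfic. Of the tested genes, 65.1% had a lower RPKM than Nfia and 76.1% a lower one than Nfic, so the family sat in the upper part of the expressed genes without reaching the levels of the main hepatocyte products. Nfia was the lowest member in each of the 24 libraries, both with the length of all exons and with that of the longest transcript.

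The order of the other members depended on the length used. With all exons, Nfic was the highest member in 6 of 6 mWT libraries, and its RPKM range there did not overlap that of any other member. In mKO, fWT and fKO mice the RPKM ranges of Nfib, Nfic and Nfix overlapped between mice. Within a library, Nfic was above Nfix in 6 of 6 mKO, 6 of 6 fWT and 5 of 6 fKO mice. Nfib was above Nfic in 1 of 6 mKO, 1 of 6 fWT and 3 of 6 fKO mice. With the longest transcript in place of all exons, Nfic was the highest member in 4 mWT libraries and in none of the other groups, and Nfib was the highest in 17 libraries. Nfib has 14957 bp of annotated exons but 9116 bp in its longest transcript, the widest gap of the 4.

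**Figure D1:**
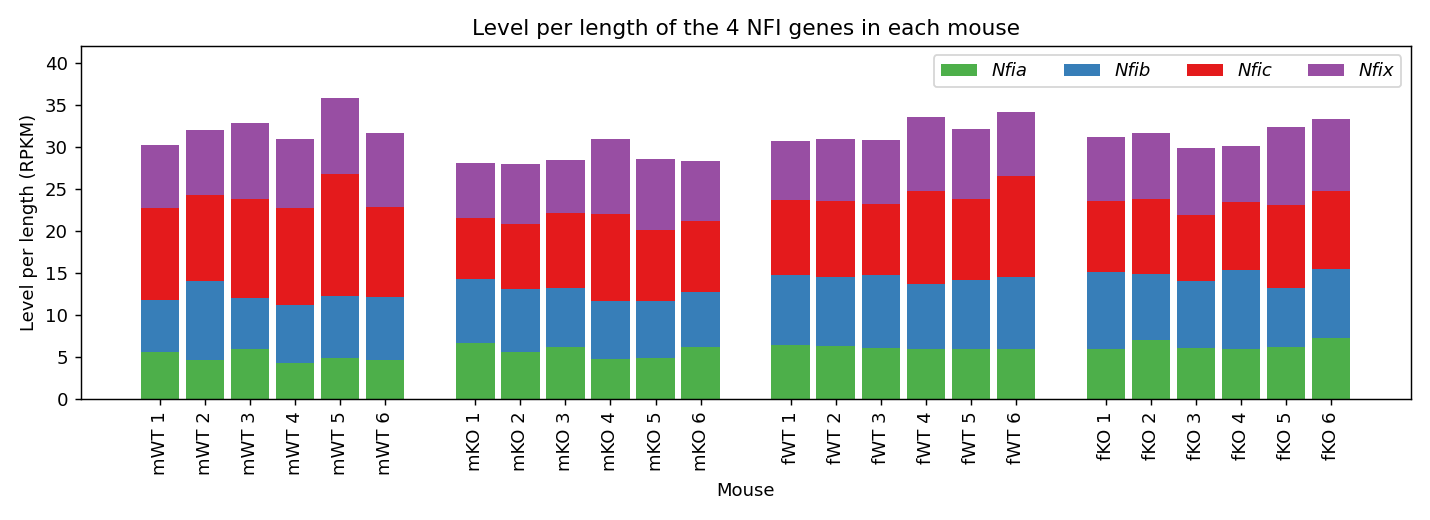
Level per length (RPKM, y axis) of the 4 NFI genes in each of the 24 mice (x axis), stacked with Nfia at the bottom and Nfix at the top. The stacks of 5 mKO mice lie between 27.9 and 28.5 RPKM and that of mKO 4 reaches 30.9, while mWT mice lie between 30.2 and 35.8.

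Nfic, known from its role in tooth root and bone formation and expressed in many tissues, showed the largest difference between KO and WT males among the members. It was expressed in mWT mice at 67.9 CPM at the lowest, 74.5 at the median and 96.9 at the highest, and in mKO mice at 48.0, 56.3 and 68.4 CPM. Of the 6 mKO mice, 5 were below every mWT mouse, and the sixth, mKO 4, was above only mWT 2. The means were 77.0 ± 10.3 CPM (SD, n = 6) in mWT and 56.5 ± 7.08 CPM (SD, n = 6) in mKO mice.

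On the log2 scale the Nfic level of mKO mice was 0.45 lower (log2 fold change −0.45, standard error 0.0973), a decrease of 26.7%. Of the tested genes outside the Mup family, 5.26% had a larger absolute log2 fold change in males. The highest mWT value came from mWT 5 alone, and without this mouse the mWT mean was 73.1 ± 3.95 CPM (SD, n = 5) and the log2 fold change −0.37. Leaving out any other single library gave values between −0.51 and −0.40.

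Genes called in males (adjusted p under 0.05) made up 0.211% of the genes tested. No call is given for Nfic, because this contrast is treated as used in the choice of the family. With all members left out of the listing, the non-Mup genes just inside the threshold were Tpst1 (−0.47), Slc39a8 (0.51) and Cobl (−0.60). Those just outside were Pnp (0.60) and Serpinb1a (1.45), with log2 fold changes in brackets.

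In females the Nfic values of KO and WT mice lay closer together. The fWT mice had 55.7 CPM at the lowest, 62.1 at the median and 79.6 at the highest, and the fKO mice 52.2, 57.6 and 65.6 CPM. The fKO range thus overlapped the fWT range except at its lower end, where 2 of 6 fKO mice were below every fWT mouse. The log2 fold change of −0.17 (standard error 0.0970, 95% interval −0.36 to 0.02) did not pass the test (edgeR's quasi-likelihood test, Benjamini-Hochberg adjusted p = 0.929). The difference between the KO effect in males and that in females was −0.28 (standard error 0.137), which contains the male contrast and is given without a test.

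Nfia, which is needed for the formation of glia and of the corpus callosum, had the opposite sign in males. It was expressed at 46.2 CPM at the lowest, 51.4 at the median and 64.6 at the highest in mWT mice, and at 50.9, 64.1 and 71.5 CPM in mKO mice. The groups overlapped widely, with 3 of 6 mKO mice above every mWT mouse. The log2 fold change was 0.20 (standard error 0.0867), smaller in size than that of 23.4% of the tested non-Mup genes.

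Nfix, known for its role in the switch from embryonic to fetal muscle, had 55.4, 62.9 and 66.8 CPM at the lowest, median and highest of the mWT mice and 46.9, 52.7 and 65.7 CPM in mKO mice. Of the mKO mice, 4 were below every mWT mouse and the other two were within the mWT range. The log2 fold change was −0.18 (standard error 0.0857).

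Nfib, which is needed for lung maturation, had the widest range of any member in mWT mice, from 91.2 over a median of 107 to 140 CPM. The mKO mice, from 96.6 over 104 to 115 CPM, all lay inside this range. The log2 fold change was −0.04 (standard error 0.0850), and 78.3% of the tested non-Mup genes had a larger one in size. Without mWT 2, the mouse at 140 CPM, it was 0.05. For 0 of the 4 members did the mKO and mWT ranges not overlap, against 1.09% of all genes tested.

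**Figure D2:**
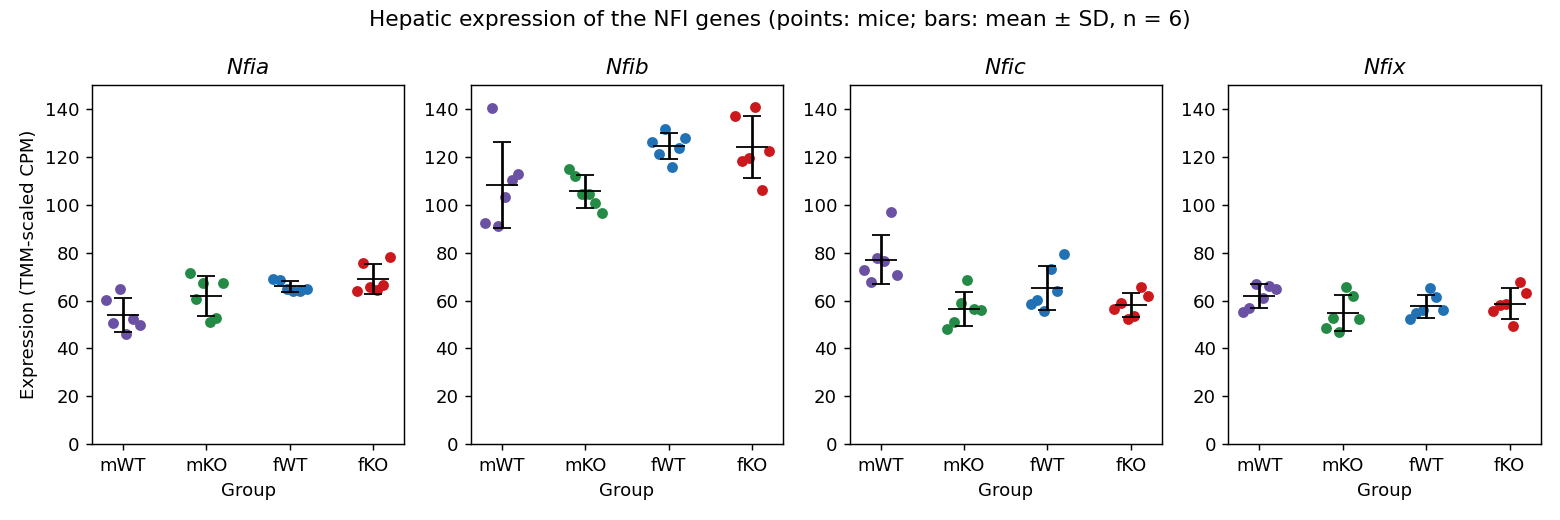
Expression of each NFI gene (TMM-scaled CPM, y axis from 0) in the 6 mice of each group (x axis), with points for single mice and bars for the mean and SD. For Nfic the 6 mKO mice sit between 48.0 and 68.4 CPM and the 6 mWT mice between 67.9 and 96.9, while for Nfib the mKO mice lie inside the range of the mWT mice.

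The shift of Nfic changed its weight within the family. Nfic made up 36.0% ± 3.03 (SD, n = 6) of the summed RPKM of the 4 members in mWT mice, 29.6% ± 2.69 in mKO, 30.6% ± 2.90 in fWT and 27.9% ± 1.5 in fKO mice. The RPKM ratio of Nfic to Nfia was 2.38 ± 0.430 (SD, n = 6) in mWT mice, with single mice from 1.97 to 3.05, and 1.54 ± 0.388 in mKO mice, from 1.10 to 2.21. In females it was 1.63 ± 0.266 in fWT and 1.39 ± 0.132 in fKO mice. The mWT mice thus had the highest ratio of the 4 groups, with no overlap with fKO mice (1.28 to 1.62) and an overlap with mKO 4 and fWT 6 alone among the other two groups. This ratio was not planned. It sets the member with the largest decrease in males over the only one with an increase. A higher value in mWT than in mKO mice therefore follows from the values above and adds no evidence. How often other pairs of genes show such ranges was not examined.

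The summed RPKM of the family was 32.2 ± 1.95 (SD, n = 6) in mWT and 28.7 ± 1.11 in mKO mice, 32.0 ± 1.52 in fWT and 31.4 ± 1.33 in fKO mice. Among mKO mice, mKO 4 stood apart at 30.9, and the other 5 had a mean of 28.2 ± 0.246 (SD, n = 5). The same mouse had the highest Nfic and Nfix and the lowest Nfia level of its group. These shares and sums use the length of all exons and would shift with another length.

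The female KO contrast uses none of the libraries of the male one and was tested for all 4 members. The members called were 0 of 4 by edgeR (0.0892% of all genes tested), 0 of 4 with an unadjusted p under 0.05 (4.87%) and 0 of 4 by DESeq2 (0.146%). Nfia was 63.8 CPM at the lowest, 64.9 at the median and 68.9 at the highest in fWT mice and 63.9, 66.0 and 78.2 CPM in fKO mice, which overlapped except for 2 higher fKO mice. The log2 fold change of Nfia was 0.07 (standard error 0.0862, 95% interval −0.10 to 0.24).

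Nfib had 116, 125 and 131 CPM at the lowest, median and highest of the fWT mice and 106, 121 and 141 CPM in fKO mice, a range that enclosed that of the fWT mice. The log2 fold change was −0.00 with an interval of −0.17 to 0.16, and its sign changed with the settings. Nfix had 52.1, 56.0 and 65.4 CPM in fWT and 49.3, 58.2 and 67.9 CPM in fKO mice, with a log2 fold change of 0.03 (interval −0.14 to 0.20). For these 3 members a change of more than 0.24 on the log2 scale in either direction lay outside these approximate intervals.

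Males and females were compared within each genotype, where 17.3% of the genes tested differed in WT and 14.4% in KO mice. These comparisons share the mWT or mKO libraries with the male contrast treated as used in the choice of the family. For Nfic, the member that stood out in that contrast, they are given without a test. The tests of the other 3 members use the same libraries, so they are not independent of that choice either. Nfia was the 1 of the other 3 members called, with lower levels in mWT than in fWT mice (8.81% of all genes tested were called in this direction), and 0 of the 3 were called between mKO and fKO mice.

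For Nfia, 5 of 6 mWT mice were below every fWT mouse, and mWT 3, at 64.6 CPM, reached into the fWT range of 63.8 to 68.9 CPM. The log2 difference mWT minus fWT was −0.29 (standard error 0.0866, edgeR's quasi-likelihood test, Benjamini-Hochberg adjusted p = 0.0216), with means of 54.0 ± 7.01 CPM (SD, n = 6) in mWT and 65.9 ± 2.31 CPM (SD, n = 6) in fWT mice. The adjusted p lay between 0.00742 and 0.0288 over the other settings, but without mWT 4 it was 0.0595 and without mWT 6 it was 0.0531. Among KO mice the difference mKO minus fKO was −0.16 (standard error 0.0863, adjusted p = 0.230 in the same edgeR fit), with 3 of 6 mKO mice below every fKO mouse. Whether the sex difference of Nfia itself differed between WT and KO mice was not tested, since that comparison is the one left as a description.

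Nfib was also lower in males by value. In WT mice, 5 of 6 males were below every female and mWT 2, at 140 CPM, was above all of them. The log2 difference of −0.20 (standard error 0.0850) did not pass the test (edgeR, adjusted p = 0.108), whereas without mWT 2 it was −0.29 with an adjusted p of 0.00854. In KO mice, 4 of 6 males were below every female and the difference was −0.23 (standard error 0.0849, edgeR adjusted p = 0.0669). This value passed without mWT 2 (adjusted p = 0.0255) or fKO 5 (adjusted p = 0.0354), and both Nfib differences passed with upper-quartile scaling (−0.25 in WT and −0.26 in KO mice), which moved the median of all genes by 0.05 in the same direction in WT mice. The library mWT 2 also had the largest share of mitochondrial reads, 6.98%, of all libraries.

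Nfix showed no difference between the sexes that passed the test, with 0.10 in WT (95% interval −0.07 to 0.27, edgeR adjusted p = 0.452) and −0.10 in KO mice (95% interval −0.27 to 0.06, edgeR adjusted p = 0.450). Nfic was 0.24 higher in mWT than in fWT mice (standard error 0.0969), with all 6 males above the female median and 1 above every female. In KO mice its sexes differed by −0.04 (standard error 0.0972), so the mean level of mKO mice, 56.5 CPM, lay close to that of fKO mice, 58.1 ± 5.13 CPM (SD, n = 6).

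**Figure D3:**
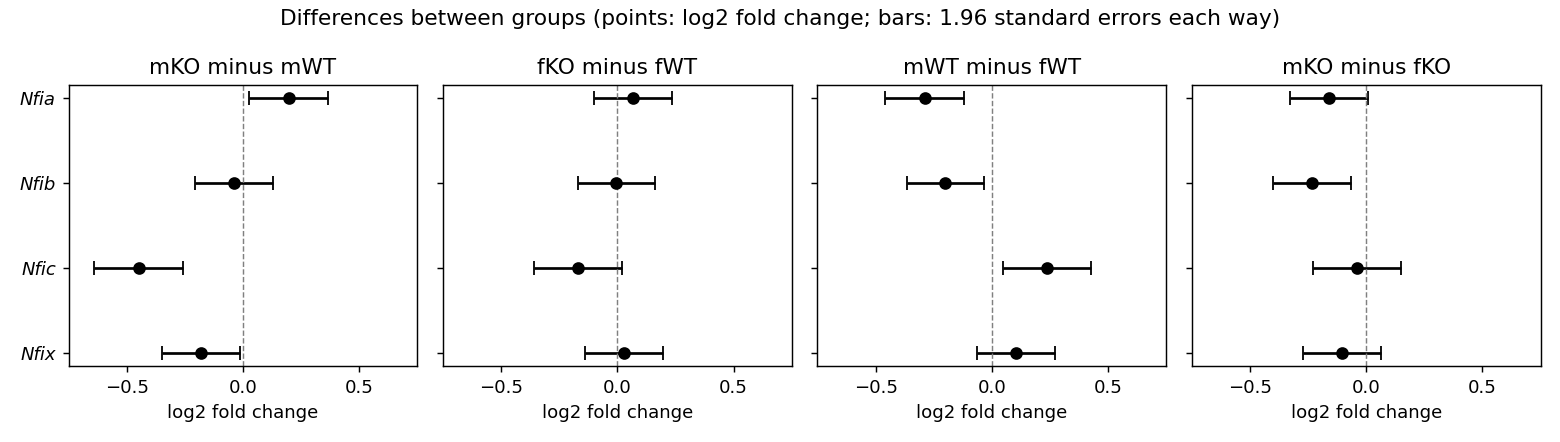
Log2 fold changes of the 4 NFI genes (x axis) in 4 comparisons of groups of 6 mice, with bars for the 95% intervals. The largest difference is that of Nfic in males (−0.45), and Nfia is lower in WT males than in WT females (−0.29).

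Markers of other liver cells moved with sex as well, in a comparison where 17.3% of all genes tested were called. Of the Kupffer cell markers, 6 of 6 were lower by value in mWT than in fWT mice and 3 of these passed the test, and their summed level was 67.9 to 135 CPM in mWT and 121 to 225 CPM in fWT mice. Stellate cell markers summed to 229 to 402 CPM in mWT and 347 to 447 CPM in fWT mice, with 6 of 6 lower and 3 called, and sinusoidal endothelial markers to 133 to 171 and 147 to 207 CPM, again with 6 of 6 lower and 3 called. Of the 4 tested cholangiocyte markers, 3 were lower in males and 2 were called, with sums of 31.0 to 40.7 and 36.8 to 58.1 CPM. The 5 blood markers went the other way, with sums of 149 to 214 CPM in mWT and 40.5 to 67.8 CPM in fWT mice, but the 1 called was Alas2, the erythroid gene of heme synthesis, which alone had 132 ± 17.3 CPM (SD, n = 6) in mWT and 12.1 ± 2.91 CPM in fWT mice. The part of these cell types in the lower Nfia level of males was not tested. In liver tissue as a whole, fewer cells of a type and less RNA per cell cannot be told apart. Between mKO and mWT mice 0 of the tested markers of all 8 cell types were called by edgeR. This contrast called 0.211% of all genes tested, so 0 calls in such lists say little.

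The genes next to the members were described as well. Within 100 kb of Nfic, 25 genes are annotated and 9 were tested. In males 0 of these 9 were called (0.211% of all genes tested), with log2 fold changes between −0.17 and 0.02. The −0.45 of Nfic lay outside this range. Because the members were treated as selected on this contrast and the neighbours were not, the difference carries no weight. Gna11, a G protein subunit gene 73089 bp from Nfic, was the 1 of these 9 called between mWT and fWT mice (0.24, standard error 0.0710, edgeR adjusted p = 0.0210), close in size to the value of Nfic. Of the 10 tested neighbours of Nfix, 0 were called in either KO contrast (0.211% of all genes tested in males and 0.0892% in females). Between the sexes Nacc1, a transcriptional corepressor gene, was higher in males in WT (0.27, edgeR adjusted p = 0.0330) and KO mice (0.30, edgeR adjusted p = 0.0236). Gadd45gip1 was higher in males in KO mice (0.43, edgeR adjusted p = 0.0383). Zdhhc21, the only tested neighbour of Nfib, was not called in any comparison. The genes that overlap a member and are in the files had at most 8 reads in any library.

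Nfic and Nfix varied together from mouse to mouse. After removing the group means, the correlation of their log2 CPM over the 24 mice was 0.60 (Pearson's r, Spearman's rho 0.60), and it was positive within each group of 6 (0.57 in mWT, 0.64 in mKO, 0.50 in fWT and 0.81 in fKO mice). Without the 2 mice with the most extreme Nfic deviations, mWT 5 and fWT 6, it was 0.69. Nfib went the other way, with r = −0.43 to Nfix and −0.35 to Nfic, negative in all 4 groups for both pairs. Nfia had negative values to the other three over all mice (−0.36 to −0.19), but their sign varied between the groups. All of these values share the scaling of each library.

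The share of mitochondrial reads, a measure of library composition, moved with the same members. Its correlation with the deviations was 0.67 for Nfib (rho 0.48, and 0.62 without mWT 2 and mKO 3), −0.49 for Nfix, −0.36 for Nfic and −0.22 for Nfia. For Nfib it was 0.85 within mWT and 0.89 within fKO mice but 0.30 in mKO and −0.05 in fWT mice. The summed level of the blood markers, most of which is Alas2 in males, correlated with Nfic at 0.64, Nfix at 0.57 and Nfib at −0.50, and the sums of the other marker lists had values of at most 0.44 in size with any member. The part of library composition in the joint variation of the members was not tested.

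**Figure D4:**
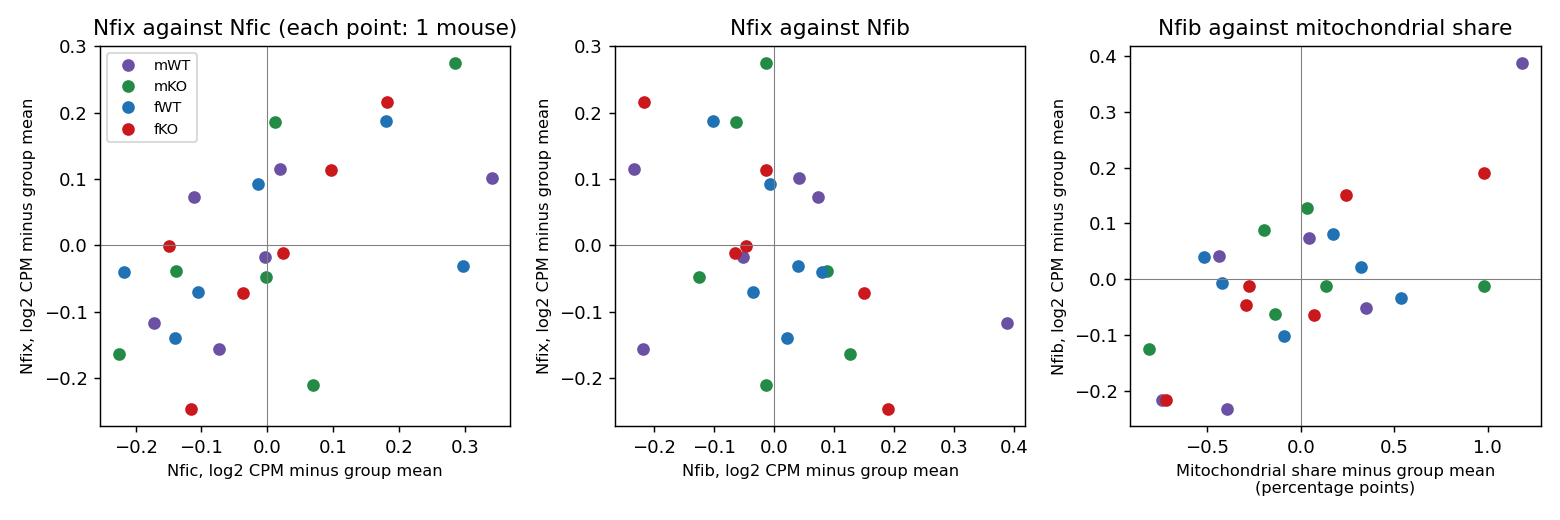
Deviations of single mice from their group mean (log2 CPM) for Nfix against Nfic, Nfix against Nfib, and Nfib against the deviation of the mitochondrial share in percentage points, with 24 mice coloured by group. Nfix rises with Nfic (r = 0.60) and falls with Nfib (r = −0.43), and Nfib rises with the mitochondrial share (r = 0.67).

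Among all genes tested, those whose deviations followed Nfic most closely over the 24 mice were Ppfia1 (r = 0.79), Ipo13, Upf1, 1700017B05Rik and Fam222b (each 0.78). For Nfix they were Uba1 and H13 (each 0.84), Cpsf1 (0.82), Sbf1 and Tln1 (each 0.81). For Nfib they were Daam1 and Mat2b (each 0.83), Glyat, 4930579F01Rik and Dennd4a (each 0.81). For Nfia they were Kctd9 (0.84), Tnip2 (0.76), S100pbp (0.73), Qser1 (0.72) and an identifier without a symbol whose counts equal those of Qser1 in every library. An absolute correlation over 0.5 was found for 15% of all genes tested with Nfib, 14.1% with Nfix, 10.2% with Nfic and 2.74% with Nfia, so high values were common for all members but Nfia. Between mKO and mWT mice 0 of these genes were called (0.211% of all genes tested).

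Genes that work with NFI proteins were called by edgeR in neither KO contrast. It called 0.211% of all genes tested in males and 0.0892% in females. With such shares 0 calls in a short list say little, here and in the lists below. Of 14 partner and corepressor genes, all tested, 0 were called by edgeR in males (3 with an unadjusted p under 0.05, which 10.6% of all genes tested had, and 1, Ep300, with DESeq2, which called 1.13% of all genes) and 0 in females (0 unadjusted and 0 with DESeq2). Their median log2 fold change was −0.03 in males and 0.02 in females, against −0.00 over all genes in both. Ep300, a histone acetyltransferase and coactivator, had the lowest p in males, with 42.2 ± 6.52 CPM (SD, n = 6) in mWT and 33.3 ± 2.09 CPM in mKO mice (log2 fold change −0.34, standard error 0.0912, edgeR adjusted p = 0.130). Between WT males and females, 2 of the 14 were higher and 2 lower in males (28.6% called, against 17.3% of all genes tested). Kdm6a, an X-linked histone demethylase, was 0.55 lower in males on the log2 scale (log2 difference −0.55, edgeR adjusted p = 1.17e-05), and Ski, a corepressor of SMAD signalling, 0.56 lower (−0.56, edgeR adjusted p = 0.00151).

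Of the 20 genes known as bound or controlled by NFI proteins in some tissue, 17 were tested and 0 were called by edgeR in males (1 with an unadjusted p under 0.05, 0 with DESeq2) or in females (0 and 0). The median log2 fold change was 0.00 in males and 0.09 in females, against −0.00 over all genes. Between the sexes, Ccnd1, the gene of cyclin D1, was lower in mWT than in fWT mice by 1.66 on the log2 scale (−1.66, edgeR adjusted p = 6.10e-05) and Igfbp5, whose promoter match is printed above, by 1.06 (−1.06, edgeR adjusted p = 0.0184). These were the 2 called of 17 in WT mice (11.8%, against 17.3% of all genes tested). The albumin gene Alb was not called in any comparison.

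Of 20 other hepatocyte transcription factor genes, 0 were called by edgeR in males or in females, 0 had an unadjusted p under 0.05 in either and 0 were called by DESeq2. Between WT males and females 3 of the 20 were called (15%, against 17.3% of all genes tested). Among them were Foxa3, a pioneer factor, higher in males (0.61, edgeR adjusted p = 0.0124), and Nr1i3, the constitutive androstane receptor, lower (−0.84, edgeR adjusted p = 0.0144). Of 10 known sex-biased regulators of the liver, 6 (60%) were called in WT mice. The difference of Nfia (−0.29) was smaller in size than each of theirs. Those of Ghr (0.37) and Onecut2 (−0.38) were nearest to it and that of Cux2 (−6.30) farthest.

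Genes with the core TTGGCA in a promoter window were called in shares near those of all genes with a window. Outside the Mup family, 1307 such genes were tested and 1 of them (Zfp37, 0.0765%) was called in males, against 0.0735% of all non-Mup genes with a window. Between the sexes 16.8% were called in WT mice (16.9% of all with a window) and 16.5% in KO mice (14.3%). Of the 12 genes with the palindrome, 4 were tested, and their median log2 fold change in males was 0.28, with 0 called by edgeR.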

How the data were processed

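Liver RNA of 24 mice in 4 groups of 6 (mWT, mKO, fWT, fKO) was sequenced by the authors from stranded mRNA libraries in a single multiplex as 100 bp single-end reads, trimmed with fastp 0.20, aligned to GRCm38.p6 with STAR 2.7a (versions from the submitters' processing notes) and counted per Ensembl gene with featureCounts. The deposited values are raw counts, not normalized. Annotation release, strand setting and handling of multiply mapped reads are not given in the sources used here. Groups and mouse numbers came from the sample labels.

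The filter kept the 12330 of 25746 genes that reached 0.66 CPM in 6 or more libraries. Counts were scaled by TMM and fitted with edgeR 4.0.16 (robust quasi-likelihood, a mean per group, all 24 libraries) in R 4.3.3. Genes with a Benjamini-Hochberg adjusted p under 0.05 over all genes tested were called. RPKM used the TMM-scaled library sizes and the GENCODE M21 exon length of each gene (25712 of 25746 identifiers matched). Deviations were taken on log2 CPM with a prior count of 2. Shared sequence was searched with blastn 2.17.0, promoter sequences are from RefSeq, and figures were drawn with matplotlib 3.10.9. Intervals are at the 95% level of a normal distribution, slightly narrower than those of the test, and the floor of 3 counts is at most 0.199 CPM. Both cover no more than the spread between these mice or counting error.

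The members and gene lists were chosen with earlier results of these data known. Named genes are the members, the 5 genes most correlated with each, genes within 100 kb, and the listed genes with the lowest p. Sex differences of Nfic were planned as tests but are given without one, because they share the mWT and mKO libraries with the male contrast treated as used in the choice. Alternatives were DESeq2 1.42.0, its size factors, upper-quartile scaling, no filter, filterByExpr, non-robust dispersions, removal of the Mup genes, each sex fitted on its own, the mouse number as a block, and each library left out in turn. The KO contrasts of the sex-biased regulators are not reported here.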

Additional observations from a re-analysis of the deposited data

Results flagged for a closer look

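In 40 sets of 6 mice (levels, shares, sums and ratios of the members by group), 2 held a mouse far from the others by Dixon's ratio at the 95% level, and chance gives about 1 in 20. Nfic in mWT 5 was 96.9 CPM, against 67.9 to 77.6 CPM in the other 5 mWT mice. The summed RPKM of the 4 members in mKO 4 was 30.9, against 27.9 to 28.5 in the other 5 mKO mice.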

How the results depend on the processing

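Of 648 recomputed member values, 630 kept their direction and their side of the threshold or, where no test was given, moved by less than 1 SD between mice. The Nfic difference in males stayed between −0.45 and −0.43 over 9 settings and between −0.51 and −0.37 with 1 library left out. The female KO effect of Nfib turned positive with DESeq2 (0.00304), its size factors (0.00324) and filterByExpr (0.000832), and without 1 library lay between −0.0395 and 0.0378, and that of Nfix between −0.0180 and 0.0787. With upper-quartile scaling the sex difference of Nfib passed the test in WT (−0.25) and KO mice (−0.26), and without 1 library it lay between −0.29 and −0.15 in WT and between −0.28 and −0.20 in KO mice. That of Nfia in WT mice lay between −0.35 and −0.25 without 1 library and lost its call without mWT 4 or mWT 6.

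The genes called in males numbered 139 with DESeq2, 2 without the Mup genes and 48 with each sex on its own, and 19 to 59 with 1 library left out (59 without mWT 1, 40 without mWT 2). In females they numbered 18 with DESeq2 and 0 without the Mup genes (edgeR, 598 with an unadjusted p under 0.05), and 8 to 12 with 1 library left out. For the difference between the KO effects DESeq2 called 11 genes, against 1 by edgeR. The split of genes higher and lower in WT males was 1049 to 1086, and 749 to 1417 with upper-quartile scaling. The cause of these changes was not tested. With the replicate block, in which mouse numbers shared by different animals enter the fit, 24 genes were called in males and the Nfic difference was −0.45. Of 36 pairs of same-numbered mice 10 had a correlation over 0.1. Mice with different numbers were not compared, so whether the numbers pair the mice cannot be told from this. The block changed no call of a member. At 784 reads or more per library, counting error is part of the spread between mice and was not separated from it.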
